A study of Mus musculus with 24 samples.

Results

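The genes of oxidative phosphorylation were followed in brain RNA of mice with and without a Shank2 knock-out. They were taken as the protein-coding genes whose symbols start with Ndufa, Ndufb, Ndufc, Ndufs or Ndufv, Sdha to Sdhd, Uqcr, Cox4 to Cox8 or Atp5 (assembly factors named Ndufaf left out), with the mitochondrially encoded mt-Nd, mt-Co, mt-Cytb and mt-Atp genes. Of 98 such genes in the count table, 95 had a mean value of at least 10 over the 24 libraries. These are 95 of the 18267 genes that reach this mean among 46078 identifiers. The nuclear genome encodes 83 of them: 38 subunits of complex I, 4 of complex II, 8 of complex III, 16 of complex IV and 17 of complex V. The mitochondrial genome encodes the other 12. The edge of the rule lies between Cox8b, with a mean of 10.7, and Cox7b2, with a mean of 7.58. Below it lie also mt-Nd4l (7.26) and the testis isoform Cox8c (0.05). The symbols alone chose the genes, not their changes between groups.

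Oxidative phosphorylation passes electrons from NADH and succinate through complexes I to IV to oxygen and uses the resulting proton gradient to drive ATP synthase, complex V. Complex II is wholly nuclear-encoded, whereas the other complexes combine nuclear subunits with a few proteins made inside the mitochondrion from its own circular genome. Neurons depend on this pathway for the ATP that restores ion gradients after synaptic activity. Shank2 encodes a scaffold of the postsynaptic density of excitatory synapses.

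All animals were C57BL/6N mice described as naïve, without drug treatment, and the tissue was labelled brain. WT and Shank2 KO mice were taken at postnatal day 14 (P14) and postnatal day 25 (P25), with 6 libraries in each of the 4 groups. In each group 3 libraries are marked as a second batch, and the 3 without such a mark were taken as the first. The labels used here do not give which part of Shank2 was removed or in which cells. Libraries were made with a kit that does not mark strand, and values are reads per gene after scaling each library by its size factor.

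Depth ran from 27552844 to 40787586 reads per library. Shank2 values were 3932 to 12778 in WT and 1899 to 6458 in KO at P14, and the ranges overlapped. At P25 they were 6382 to 13358 in WT and 2217 to 5153 in KO, with no overlap. Regional markers differed strongly between libraries of a group. The summed value of 12 cerebellar granule cell markers, none of which was at 0 in these libraries, was 213018 to 249239 in P25 WT replicates 4, 5 and 6 and P25 KO replicates 5 and 6. It was 120950 in P25 KO replicate 2, 82153 in P14 KO replicate 1 and 48260 in P14 WT replicate 3, and 4276 to 17153 in the remaining libraries. The olfactory bulb list stood at least 3.16 log2 units above its mean in 4 libraries, replicate 5 of P14 WT, replicates 4 and 6 of P14 KO and replicate 4 of P25 KO. The pituitary list stood 7.41 units above its mean in P25 WT replicate 3. An 11-library subset without these features is called forebrain-rich. In such bulk samples, fewer cells of a type and less RNA per cell cannot be told apart. In all comparisons the groups thus differ in tissue make-up as well as in genotype or age, and the part of the make-up in each result is given below only as far as a value bears on it.

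Levels of the subunits spanned several orders of magnitude. Per kilobase of exon, the median level of nuclear subunits was 1226 for complex I, 2090 for complex II, 2698 for complex III, 2574 for complex IV and 1797 for complex V. Within complex I the level per kilobase ran from 81.7 for Ndufa4l2 to 4745 for Ndufa4, a subunit first assigned to complex I and now placed with complex IV. Complex III was the most even, from 1572 for Uqcrq to 3738 for Uqcr11. Complex IV was the widest, from 29.7 for Cox8b, the heart and muscle form of subunit VIII, to 15953 for Cox8a, its ubiquitous form. Complex V ran from 193 for Atp5s, the coupling factor B, to 9466 for Atp5a1, the alpha subunit of the F1 head. Among mitochondrially encoded genes mt-Co1, the catalytic subunit of complex IV, reached 262873 per kilobase. The 13 mitochondrial protein genes took 2.72% to 4.02% of all reads, and the nuclear subunits 0.866% to 1.31%.

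Comparing KO with WT asks whether loss of Shank2 altered these genes. At P14 none of the 83 nuclear and 12 mitochondrial genes passed limma's test, beside 0% of all genes called, and the test had 554 genes of 18267 at an unadjusted p under 0.05. The nuclear subunits nevertheless leaned 1 way: 81 of 83 had a lower mean in KO, with a median log2 difference of -0.09 against -0.0028 over all genes. The difference is smaller than the pooled SD of the library medians within groups, 0.16 on the log2 scale. That SD describes single libraries with both batches together, and is not a test of the lean.

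The subunit with the smallest p at P14 was Ndufc1, an accessory subunit of complex I. Its values were 992 to 1477 in WT, with a median of 1205, and 875 to 1311 in KO, with a median of 1069. The ranges overlapped, with 2 KO libraries below all WT libraries. Its log2 difference was -0.15 ± 0.06 (SE), with an adjusted p of 0.9999 in limma. Atp5s differed by -0.18 ± 0.08, Ndufb10 by -0.15 ± 0.06 and Ndufb11 by -0.13 ± 0.06, and no other nuclear subunit had an unadjusted p under 0.05. Complex III was led by Uqcrfs1, the Rieske iron-sulphur protein, at -0.11 ± 0.06, and complex II by Sdhd, a membrane anchor, at -0.08 ± 0.08. Complex IV was led by Cox8b at -1.25 ± 0.77, a value that rests on P14 WT replicate 5 and became -0.44 ± 0.58 without that library. None of these passed.

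The lean of the nuclear subunits at P14 depended on the libraries compared. In the first batch alone 79 of 83 were lower in KO, and in the second batch alone 78 of 83. Without P14 WT replicate 3, the library with the most hindbrain markers at that age, 76 were lower. Among the forebrain-rich libraries only 24 of 83 were lower, with a median log2 difference of 0.03. That fit had no batch term, since the P25 libraries of the subset are all first-batch ones. Its P14 WT and KO libraries mix the batches in unequal shares. Among the forebrain-rich libraries of the first batch 26 were lower, with a median of 0.03.

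At P25 the nuclear subunits showed no lean, with 40 of 83 higher in KO, a median of -0.01, and again 0% of all genes called and 98 of 18267 at an unadjusted p under 0.05. The smallest p-values of the nuclear complexes belonged to Ndufa12 at 0.08 ± 0.06, Uqcr11 at -0.11 ± 0.12, Atp5mpl at 0.06 ± 0.07, Cox7a2l at 0.06 ± 0.09 and Sdha at 0.05 ± 0.07, all with an adjusted p of 1.0. Of the mitochondrial genes 11 of 12 had a lower mean in KO, with a median of -0.12. The largest was mt-Co3, at -0.50 ± 0.20, with an unadjusted p of 0.0208 and an adjusted p of 1.0 in limma. The values of mt-Co3 were 21.3 to 209 in WT, with a median of 82.5, and 16.4 to 129 in KO, with a median of 64.5, and the ranges overlapped. Next came mt-Atp6 at -0.30 ± 0.15 and mt-Nd6 at -0.12 ± 0.09.

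The difference between the KO effects at P25 and at P14 was tested in the same model and passed for none of the 95 genes, with 0% of all genes called and 189 at an unadjusted p under 0.05. It was positive for 79 of 83 nuclear subunits, with a median of 0.09. Ndufb10 had the smallest p among them, at 0.17 ± 0.09. The mitochondrial genes were negative in all 12 cases, led by mt-Co3 at -0.77 ± 0.28. The P14 and P25 groups share no library, but the lean at P14 and this difference rest on the same P14 values.

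**Figure D1:**
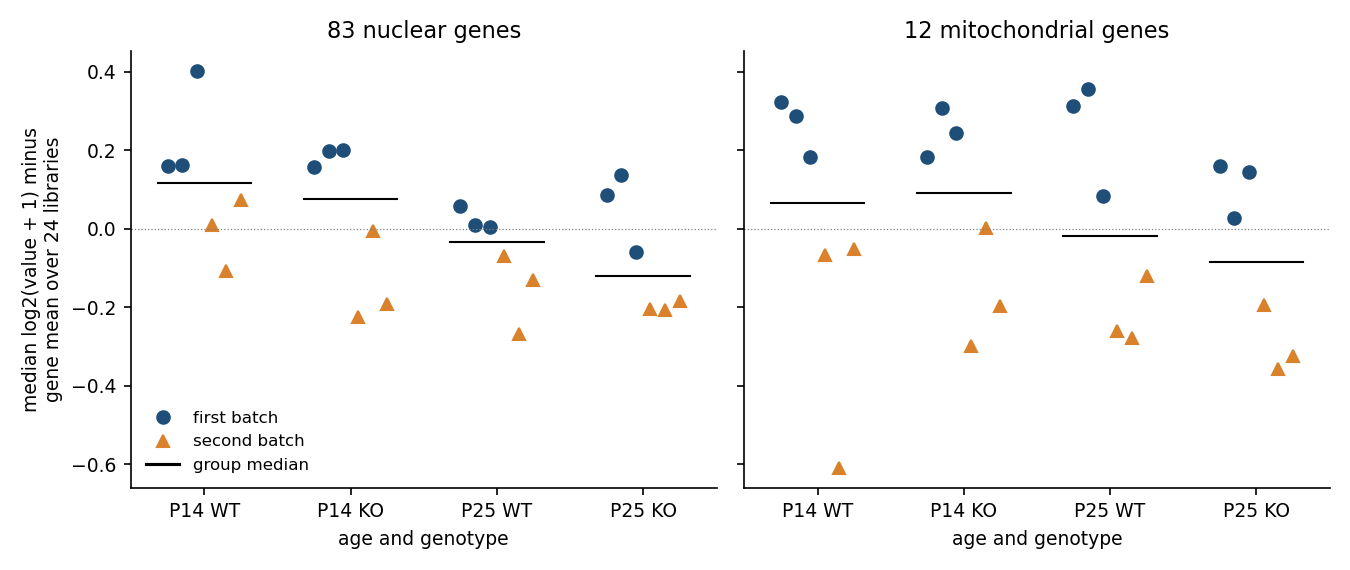
Each point is 1 library: the median over the 83 nuclear (left) or 12 mitochondrial (right) genes of log2(value + 1) minus the gene's mean over the 24 libraries, by age and genotype, with the group median as a line. At P14 and at P25 all second-batch libraries (triangles) lie below all first-batch libraries (circles) of the same age in the left panel, with 0.158 to 0.403 against -0.224 to 0.073 at P14.

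Between P14 and P25, 42 of the 83 nuclear subunits fell and 1 rose in WT brain in limma, beside 28.1% of all genes called in either direction (14.4% lower and 13.7% higher). Complex V had 12 of 17 lower, complex III 5 of 8, complex IV 8 of 16, complex I 15 of 38 and complex II 2 of 4. The median log2 change of the nuclear subunits was -0.21, against -0.03 over all genes tested. In KO brain 6 fell and 2 rose, beside 11.8% of all genes called (5.95% lower and 5.9% higher), with a median of -0.10 against -0.01. The counts in the 2 genotypes do not show a difference between them: the test of that difference is the one above, which passed for no gene.

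**Figure D2:**
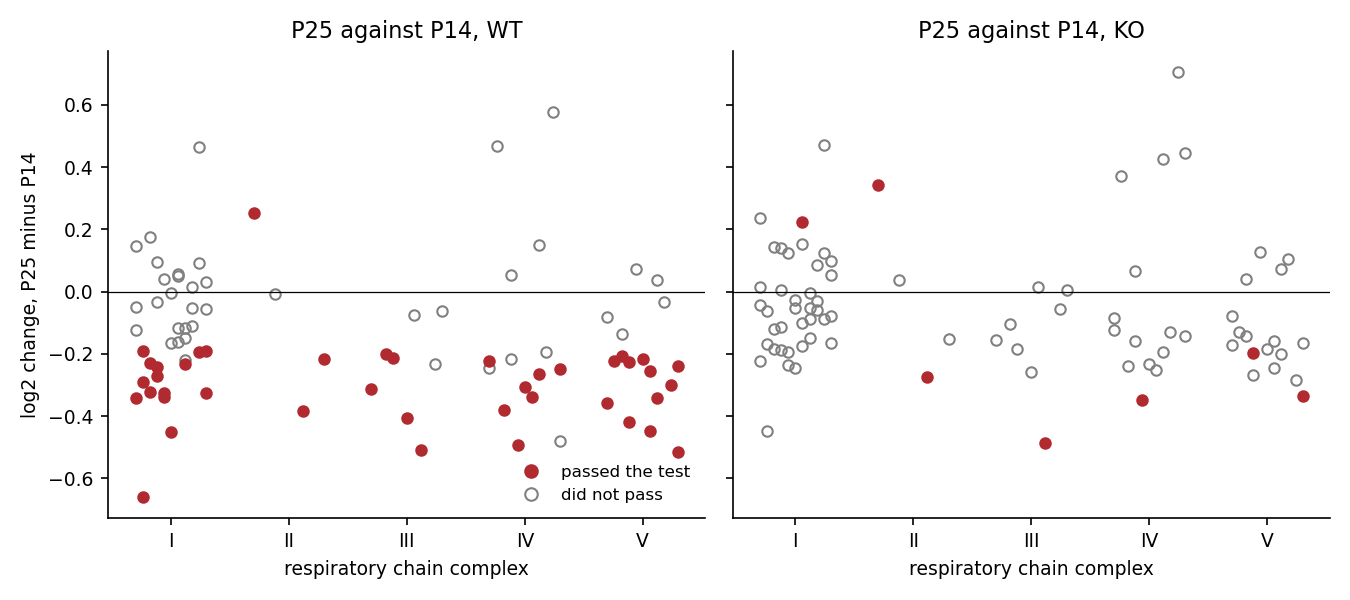
Each point is 1 nuclear subunit: its log2 change from P14 to P25 (vertical axis) by complex (horizontal axis), in WT (left) and KO (right), with filled points for those that passed limma's test at an adjusted p of 0.05. Most points lie below 0 in complexes I, III, IV and V, and Sdha of complex II lies at 0.25 in WT and 0.34 in KO; Cox6a2, at -2.26 and -1.88, lies off the axis and is not drawn.

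Of the nuclear subunits 7 passed in both genotypes, 6 of them downward. The share of all genes that passed in both was not counted, so this number has no background beside it. Atp5mpl, a small membrane subunit associated with ATP synthase, had the smallest p in WT. Its values were 1814 to 2519 at P14 in WT, with a median of 2141, and 1204 to 1685 at P25, with a median of 1515. All 6 P25 libraries lay below all 6 P14 libraries. In KO they were 1700 to 2370, with a median of 1916, at P14, and 1236 to 1886, with a median of 1600, at P25, and 4 P25 libraries lay below all P14 libraries. The log2 change was -0.51 ± 0.07 in WT (adjusted p = 0.000174, limma) and -0.34 ± 0.07 in KO (adjusted p = 0.00774). Atp5c1, the gamma subunit that turns inside the catalytic head, fell by 0.23 in WT and by 0.20 in KO on the log2 scale. Atp5e, the epsilon subunit, fell by 0.45 in WT, where all 6 P25 libraries (1542 to 1874) lay below all P14 libraries (1959 to 3085).

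Complex II split. Sdha, the flavoprotein that oxidises succinate, rose, while Sdhb, the iron-sulphur subunit that takes its electrons, fell. Sdha values were 9220 to 12427 at P14 in WT, with a median of 10760, and 12021 to 14729 at P25, with a median of 12420. The WT ranges overlapped, with 3 P25 libraries above all P14 libraries. In KO they were 9943 to 11313, with a median of 10360, and then 11753 to 15270, with a median of 12830. All 6 P25 KO libraries lay above all 6 P14 KO libraries. The log2 change of Sdha was 0.25 ± 0.07 in WT (adjusted p = 0.0148) and 0.34 ± 0.07 in KO (adjusted p = 0.00652). Sdhb values were 3819 to 4830 at P14 and 2764 to 3937 at P25 in WT, with medians of 4534 and 3372, and 4 P25 libraries lay below all P14 libraries. In KO the medians were 4327 and 3726. Sdhb fell by 0.38 in WT and by 0.27 in KO, with adjusted p-values of 0.00163 and 0.0224 in limma. Sdhd fell by 0.22 in WT and did not pass in KO, and Sdhc, the other anchor, passed in neither.

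In complex III the largest fall was that of Uqcr11, its smallest subunit. Its values were 2104 to 3299 at P14 and 1631 to 2686 at P25 in WT, with medians of 3067 and 1924. In KO they were 1877 to 3637 and 1444 to 2246, with medians of 2666 and 1922. The ranges overlapped in both genotypes. The log2 change was -0.51 ± 0.12 in WT (adjusted p = 0.00463) and -0.49 ± 0.12 in KO (adjusted p = 0.0138). Uqcrq fell by 0.41 in WT. In complex I the largest falls in WT were those of Ndufa4l2, by 0.66, and Ndufa4, by 0.45. All 6 P25 WT values of Ndufa4l2 (48.8 to 91.9) lay below all P14 WT values (93.3 to 145). The only complex I subunit to pass in KO was Ndufb10, which rose by 0.22 ± 0.06 (adjusted p = 0.0240, limma), from a median of 2553 to 2955. Its change in WT did not pass, and was -0.07 in the first batch alone and 0.17 in the second.

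Cox7a2l, which joins complexes III and IV into supercomplexes, fell by 0.49 in WT and by 0.35 in KO, with medians of 4063 at P14 and 2965 at P25 in WT and 4046 and 3332 in KO. In WT 5 of the 6 P25 libraries lay below all P14 libraries. Its fall differed in size between batches: it was -0.20 in WT and -0.21 in KO in the first batch, and -0.78 and -0.49 in the second, where the P25 libraries were mostly cerebellum-rich. With region covariates in the fit it was -0.27 in WT and -0.22 in KO.

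The age changes were read again in the 4 pairs of groups that share no library, WT and KO in each batch. Of the 83 nuclear subunits 48 (57.8%) were lower at P25 in all 4 pairs and 3 (3.61%) higher, against 21.5% and 21.2% of all 18267 genes tested. The 3 that were higher were Sdha, Ndufs1 and Ndufv1. They were singled out after their values were seen. The median change was -0.20 and -0.17 in WT, first and second batch, and -0.13 and -0.05 in KO. Atp5mpl ranged from -0.54 to -0.33 over the 4 pairs, Uqcr11 from -0.61 to -0.37, Sdhb from -0.47 to -0.26, Atp5c1 from -0.28 to -0.17 and Sdha from 0.22 to 0.39.

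The counts of calls depend on the libraries kept. In all 11 forebrain-rich libraries, fitted without a batch term, 49 of 83 nuclear subunits were lower at P25 in WT and 61 in KO. The 8 forebrain-rich libraries of the first batch, 2 per group, were set apart after the data had been seen. In these 8 libraries 68 of 83 were lower at P25 in WT and 69 in KO, with medians of -0.12 and -0.18. There Atp5mpl changed by -0.40 in WT and -0.48 in KO, Uqcr11 by -0.29 and -0.68, and Sdha by 0.21 and 0.37; Atp5mpl and Uqcr11 passed in KO, with adjusted p-values of 0.0266 and 0.0184, and none of these 3 in WT. In the first batch alone 0 nuclear subunits passed in WT, where 46 of all genes passed and 2477 had an unadjusted p under 0.05. Without P25 WT replicate 5 the total for WT is 27 of 95 instead of 44. For KO it moves from 9 to 33 without P25 KO replicate 4, the olfactory bulb-rich P25 library, and to 14 without P14 KO replicate 1. It moves to 5 without P14 KO replicate 2 or without P25 KO replicate 5. The calls over all 18267 genes moved as well. They went from 5134 to 3286 in WT. In KO they went from 2163 to 6861, 2903, 826 and 815, in the order of the libraries named.

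Of the 12 mitochondrially encoded genes 1 passed in each genotype (8.33%), below the 28.1% of all genes called in WT and 11.8% in KO. In WT it was mt-Atp8, a short subunit of complex V, which rose by 0.41 ± 0.12 (adjusted p = 0.0170, limma), and the median over the 12 genes was 0.09. In KO it was mt-Atp6, the proton channel subunit a, which fell by 0.66 ± 0.15 (adjusted p = 0.00970), and the median was -0.05. The log2 difference between the ages was 0.05 ± 0.15 in WT and -0.02 ± 0.15 in KO for mt-Co1, and -0.04 ± 0.12 and -0.09 ± 0.12 for mt-Cytb, the cytochrome b of complex III. For the complex I genes mt-Nd1, mt-Nd2, mt-Nd4, mt-Nd5 and mt-Nd6 it was -0.14 to 0.13 in WT and -0.22 to 0.04 in KO, and none passed. For mt-Nd3 it was 0.28 in WT and -0.06 in KO, for mt-Co2 0.35 and 0.13, and for mt-Co3 0.24 and -0.53, without passing. The rise of mt-Atp8 was 0.85 in the first batch and -0.02 in the second, and the fall of mt-Atp6 in KO was -1.13 in the first and -0.19 in the second.

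Values of several mitochondrial genes have to be read against annotated copies of the mitochondrial genome in the nucleus. The deposited values of mt-Co1, mt-Cytb, mt-Nd1, mt-Nd2, mt-Nd4 and mt-Nd5 were never below 56938, and those of mt-Co2, mt-Co3, mt-Atp6 and mt-Nd3 were at most 525. All of these lie on the same strand and are cut from 1 long precursor transcript. On chromosome 1 (chr1:24611535-24616197, GRCm38, minus strand) GENCODE M21 lists unprocessed pseudogenes that repeat this stretch. The copy of mt-Co2, Gm28661, has 0 different bases of 681 compared, that of mt-Co3, Gm28437, 0 of 783, that of mt-Atp6, Gm10925, 0 of 678, and that of mt-Nd3, Gm28438, 1 of 345. At these genes 98.0% to 100% of all 50-base windows occur in the transcript of another gene, so that a read from within them cannot be assigned by its sequence. The same holds for 98.8% of mt-Nd4l, 62.2% of mt-Nd4 and 51.1% of mt-Co1. The labels used here do not say how reads with several matches were counted, and their part in the low values was not tested.

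The following stretches, bases 101 to 190 of mt-Co3 (chrM:8607-9390, plus strand) and of its copy Gm28437 (chr1:24613189-24613971, minus strand), show why the pair cannot be separated, while a stretch of mt-Nd2 (bases 629 to 718; chrM:3914-4951) and its partial copy Gm13339 on chromosome 2 differ at the 4 bases in capitals. All are written 5′ to 3′ as the transcripts read, from GENCODE M21 on GRCm38, and capitals would mark any difference.
mt-Co3: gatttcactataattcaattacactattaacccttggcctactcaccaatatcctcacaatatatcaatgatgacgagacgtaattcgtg
Gm28437: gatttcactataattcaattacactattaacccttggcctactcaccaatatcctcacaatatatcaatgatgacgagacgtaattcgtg
mt-Nd2: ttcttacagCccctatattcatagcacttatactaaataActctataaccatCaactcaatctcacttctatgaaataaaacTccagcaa
Gm13339: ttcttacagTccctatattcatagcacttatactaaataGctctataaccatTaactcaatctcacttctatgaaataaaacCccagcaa
The mt-Nd2 copy differs at 17 of 510 bases in all, and only 8.19% of the 50-base windows of mt-Nd2 are shared; mt-Nd2 kept values of 56938 to 125183.

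Values of mt-Co3 and mt-Co2 also differed between the batches. Between second-batch and first-batch libraries at P14, mt-Co3 was lower by 2.56 ± 0.20 on the log2 scale and mt-Co2 by 2.19 ± 0.23, with adjusted p-values of 7.51e-08 and 6.33e-06 in limma; at P25 they fell by 2.47 and by 1.79. The values of mt-Co3 at P14 were 108 to 207 in the first batch and 20.6 to 34.7 in the second. All 6 second-batch libraries lay below all first-batch libraries, and the same was true at P25 (97.4 to 209 and 16.4 to 39.2). The copy Gm28437 had values of 76.0 to 322 in the first batch and 11.9 to 26.2 in the second over both ages. Of the 12 mitochondrial genes 7 were lower in the second batch at P14, beside 5.45% of all genes called, and 9 at P25, beside 46.9%. Genes without windows shared with another annotated transcript were also lower. For mt-Nd1 the fall was 0.45 at P14 and 0.47 at P25. For mt-Atp8, whose 3′ end overlaps mt-Atp6 on the same strand, it was 0.95 and 1.66. The gene mt-Atp8 lies between mt-Co2 and mt-Atp6, and the stretch between their copies Gm28661 and Gm10925 was not searched. The batches were compared after the data had been seen.

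**Figure D3:**
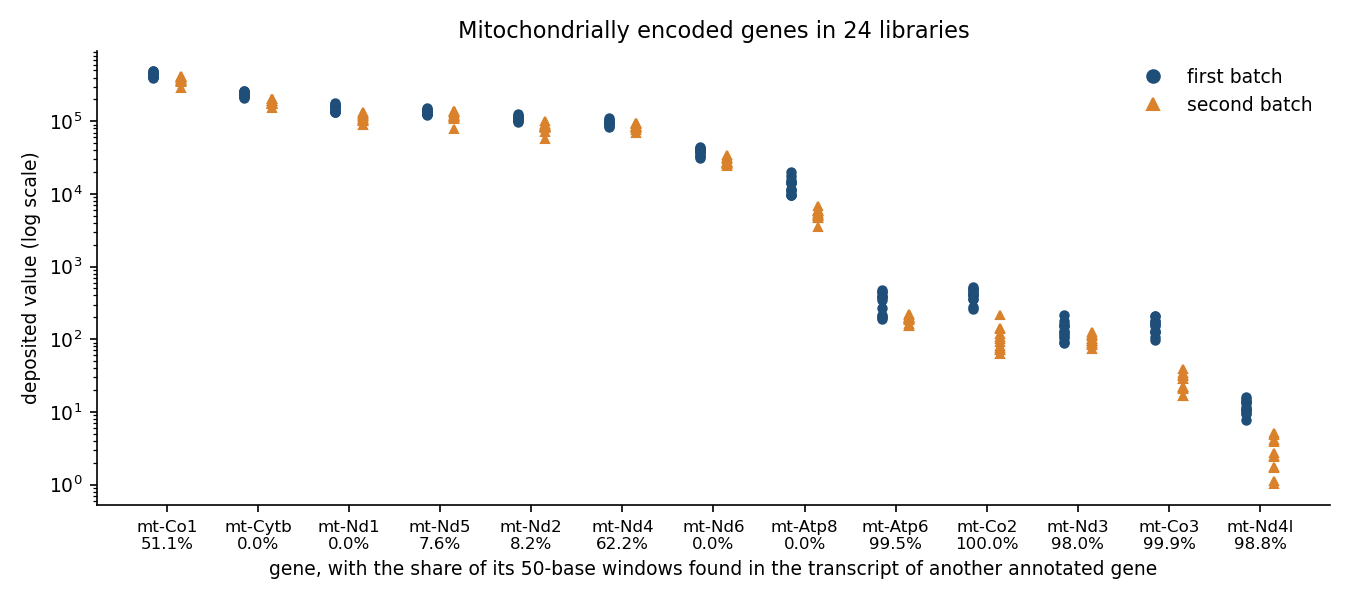
Deposited values (log scale) of the 13 mitochondrially encoded genes in the 24 libraries, first batch as circles and second batch as triangles, with the share of each gene's 50-base windows found in the transcript of another annotated gene under its name; 1 library of mt-Nd4l at 0 is not drawn. The 5 genes with 98.0% to 100% shared windows have the lowest values, and the first-batch and second-batch values of mt-Co3 do not overlap.

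The nuclear subunits also differed between batches. At P14 43 of 83 were lower in the second batch and 0 higher, beside 2.89% and 2.56% of all genes, with a median of -0.29 against 0.03 over all genes. At P25 42 were lower and 2 higher, beside 23.6% and 23.3%, with a median of -0.20. The higher ones were Ndufb2, by 0.78, and Ndufs7, by 0.29. Complex IV had the lowest median at both ages, -0.37 and -0.41. With region covariates in the fit 25 of all 95 genes were called at P14 and 3 at P25, beside 416 and 50 of all 18267 genes. Of these pathway genes 24 at P14 and 3 at P25 had also been called without the covariates. The nuclear medians were -0.22 and -0.19. At P25 all 5 of the most cerebellum-rich libraries are second-batch libraries, so that batch and region largely coincide there. P25 KO replicate 2, a first-batch library, had a granule cell marker sum of 120950 and a nuclear median deviation of 0.136. P25 KO replicate 4, a second-batch library, had 8402 and -0.204. The parts of batch and region in the difference were not tested.

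Cox6a2, the heart and muscle form of complex IV subunit VIa, had the largest age change. Its values in WT were 76.9 to 249.1 at P14, with a median of 193, and 4.79 to 212 at P25, with a median of 53.2. In KO they were 66.1 to 230, with a median of 134, and 4.56 to 152, with a median of 45.1. The ranges overlapped in both genotypes, since P25 libraries fell into a high and a low set. The log2 change was -2.26 ± 0.56 in WT (adjusted p = 0.00754, limma) and -1.88 ± 0.56 in KO (adjusted p = 0.0367).

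The low set of Cox6a2 values is that of the cerebellum-rich libraries. In P25 WT replicates 4, 5 and 6 and P25 KO replicates 5 and 6 it was 4.56 to 10.0, and in P25 KO replicate 2 it was 25.1. In the forebrain-rich P25 libraries it was 128 to 212. Within the forebrain-rich libraries of the first batch the age change was -0.31 in WT and -0.49 in KO. Its ubiquitous partner Cox6a1 fell less, by 0.34 in WT. Cox6a2 per kilobase made up 1.09% to 2.65% of Cox6a1 in P14 WT, with a median of 2.21%. In P25 WT it made up 0.0776% to 2.55%, with a median of 0.828%.

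**Figure D4:**
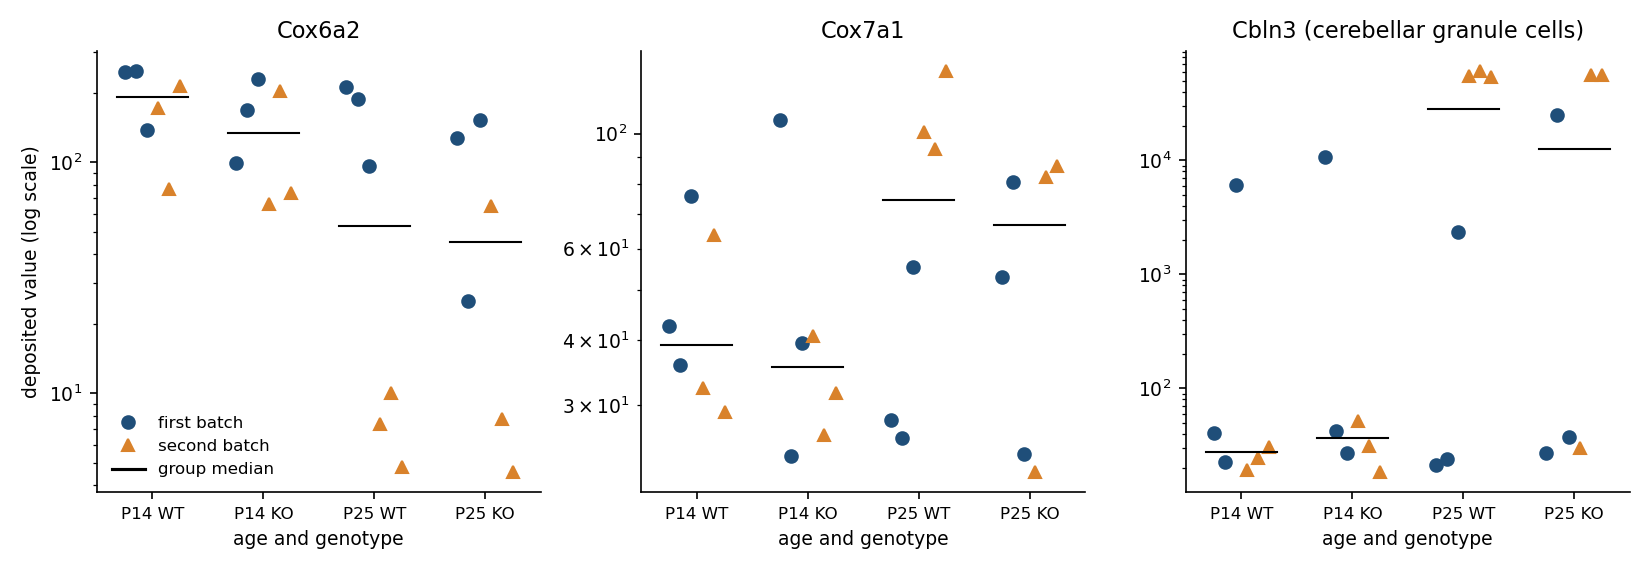
Deposited values (log scale) of Cox6a2, of Cox7a1 and of the cerebellar granule cell marker Cbln3 in the 24 libraries by age and genotype, first batch as circles, second batch as triangles, group medians as lines. The 5 P25 libraries with the highest Cbln3 hold the 5 lowest values of Cox6a2, 4.56 to 10.0.

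The other tissue isoforms were minor forms in all libraries. Cox4i2, the lung and low-oxygen form, made up 0.485% to 2.01% of Cox4i1 per kilobase, and Cox6b2, a testis form, 0.403% to 4.15% of Cox6b1. Cox7a1, the heart and muscle form, made up 0.966% to 8.34% of Cox7a2, and did not pass with age, at 0.47 ± 0.42 in WT and 0.37 ± 0.42 in KO. Cox7a1 was highest in P25 WT replicates 4, 5 and 6 (93.4 to 132) and P14 KO replicate 1 (106). Ndufa4l2, a form found in pericytes, made up 0.966% to 3.27% of Ndufa4. Of the 3 genes for the c ring of ATP synthase, which encode the same mature protein, Atp5g3 was the most abundant per kilobase; Atp5g1 stood at 20.7% to 33.5% of it and Atp5g2 at 26.9% to 41.1%. All 3 fell in WT, Atp5g1 by 0.30 and Atp5g2 and Atp5g3 by 0.22 each, and none passed in KO. For Atp5g2, 38.4% of 50-base windows are shared with other transcripts, chiefly a processed pseudogene, and for Atp5o 41.6%, over 4 other genes. The largest of these shares, 15.4%, belongs to Gm15976, an antisense transcript, which reads without strand cannot separate.

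Genes around the pathway were read from lists named beforehand for this pathway, though with earlier results known. No list member passed in KO against WT at either age. With age, 26 of 77 mitochondrial ribosomal protein genes fell and 1 rose in WT, and 8 fell and 2 rose in KO, beside the shares of all genes given above. Their median was -0.12 in WT and -0.07 in KO. Mrpl34 fell by 0.43 and Mrpl17 by 0.29 in WT. Of the 6 genes for complex V assembly and its inhibitor, among which Atp5mpl is counted too, 4 fell in WT and 2 in KO. Atpif1, the inhibitor of ATP hydrolysis by complex V, fell by 0.54 in WT and by 0.52 in KO. At P25 all 6 genes of this list were also lower in the second batch, beside 23.6% of all genes.

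Of the 25 regulators of mitochondrial biogenesis 5 rose and 0 fell in WT and 2 rose and 0 fell in KO. These shares, 20% and 8%, are below the 28.1% and 11.8% of all genes called in either direction. The median change of the 25 was 0.12 in WT and 0.10 in KO, against -0.03 and -0.01 over all genes. Ppargc1b, a coactivator of respiratory genes, rose by 1.45 ± 0.29 in WT and 1.14 ± 0.29 in KO, with adjusted p-values of 0.00200 and 0.0177 in limma. Esrra, a nuclear receptor that it coactivates, rose by 0.35 and 0.41. In all 4 batch and genotype pairs 0 of the 25 were lower and 9 (36%) higher, against 21.5% and 21.2% of all genes. The list also differed between batches at P25. There 12 of the 25 were higher and 1 lower in the second batch (52%), beside 46.9% of all genes called. In the citric acid cycle 3 of 18 fell and 1 rose in WT, and 1 fell and 2 rose in KO: Mdh2, malate dehydrogenase, fell by 0.32 and by 0.29, and Idh3b rose by 0.34 in KO. Of 19 complex I assembly genes 2 rose and 3 fell in WT, with Lyrm2 lower by 0.50 ± 0.11 and Dmac2 higher by 0.51 ± 0.13. In KO 3 rose and 1 fell. The called shares of the citric acid cycle list were 22.2% in WT and 16.7% in KO and those of the complex I assembly list 26.3% and 21.1%: below the share of all genes in WT and above it in KO.

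Of the 23 complex IV assembly genes 3 rose and 2 fell in WT (21.7%) and 1 rose in KO (4.35%), both below the share of all genes. Cox17, the copper chaperone, rose by 0.40 in WT and 0.35 in KO. Of 4 complex II assembly genes 1 rose and 2 fell in WT, where Sdhaf3 rose by 0.42, and it rose by 0.44 in KO. None of 6 complex III assembly genes passed in either genotype, with 1 at an unadjusted p under 0.05 in each. Of 20 electron carriers and entry points 2 rose and 3 fell in WT (25%) and 1 rose in KO (5%), again below it. Coq8a, a kinase-like protein of coenzyme Q synthesis, rose by 0.58 in WT and 0.43 in KO. Among 12 transporters of ADP, ATP and phosphate, Vdac3, an outer membrane channel, fell by 0.28 in both genotypes. Of 4 uncoupling proteins 1, Slc25a27, rose in WT, by 0.30.

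Promoter sequences of the nuclear subunits were also searched for short motifs. RefSeq windows on GRCm38.p6, from 250 bases before to 50 bases after the start, were matched for 68 of the 83 nuclear subunits. The NRF1 motif (GCGCA, any base, GCGC), searched on both strands, was in 16 of the 68 (23.5%), against 4.78% of 27025 promoters. The ETS motif CCGGAAG, bound by GABPA, was in 15 (22.1%) against 9.12%, and AAGATGGC, of YY1, in 9 (13.2%) against 2.88%. By complex the NRF1 motif was in 5 of 15 promoters of complex V, 7 of 33 of complex I, 2 of 3 of complex II, 1 of 5 of complex III and 1 of 12 of complex IV. Each motif was thus absent from most of the 68 promoters. The 27025 promoters were not matched to the subunits for base composition. A match is a stretch of letters, not a measured binding site.

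The 200 bases before the start of a subunit that rose in both genotypes, Sdha (chr13:74350241-74350440, minus strand), of one that fell in both, Uqcr11 (chr10:80406822-80407021, minus strand), and of the ubiquitous isoform Cox6a1 (chr5:115348959-115349158, minus strand), which fell in WT, are given 5′ to 3′ on the strand of the gene, with the motif matches in capitals.
Sdha: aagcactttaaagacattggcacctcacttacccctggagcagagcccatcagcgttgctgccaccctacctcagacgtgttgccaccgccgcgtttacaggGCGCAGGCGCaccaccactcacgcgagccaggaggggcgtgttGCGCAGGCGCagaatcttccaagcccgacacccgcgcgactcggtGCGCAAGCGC
Uqcr11: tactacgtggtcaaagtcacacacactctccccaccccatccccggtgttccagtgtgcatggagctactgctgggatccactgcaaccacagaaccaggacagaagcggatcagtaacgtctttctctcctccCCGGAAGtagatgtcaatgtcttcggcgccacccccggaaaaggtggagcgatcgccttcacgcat
Cox6a1: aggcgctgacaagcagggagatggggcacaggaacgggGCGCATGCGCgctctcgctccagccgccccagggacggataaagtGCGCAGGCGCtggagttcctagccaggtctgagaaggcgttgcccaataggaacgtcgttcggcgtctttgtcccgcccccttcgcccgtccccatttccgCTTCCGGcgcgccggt
Sdha holds 3 NRF1 matches, Uqcr11 an ETS match and no NRF1 match, and Cox6a1 both kinds. Sdha and Uqcr11 thus have none of the searched letters in common in this window.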

How the data were processed

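Values per gene were deposited for brain RNA of 24 mice, 6 per group by the design text. Trimmomatic 0.35, TopHat2 2.1.0, HTSeq and DESeq2 were used on GRCm38, per the submitters' processing notes. The sources used here name no version of HTSeq or DESeq2, no annotation release, no strand setting and no rule for reads with several matches. The authors deposited a signal, the reads of a gene over the library's size factor (0.825 to 1.22), a unit read from the values. Nonzero values are whole multiples of 1 step (100% within 0.01), which gave the reads back. Unused sample columns numbered 0.

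GENCODE M21 gave symbols for 45229 of 46078 identifiers. Genes with a mean of 10 or more (18267) were tested on log2(value + 1) by limma 3.58.1 in R 4.3.3, whose prior variance followed expression. Group means (4) and a batch term for each age left 18 residual degrees of freedom. Adjustment was by Benjamini-Hochberg over all genes tested, at a threshold of 0.05. The added 1 shrinks the fold changes of low genes. The members and lists were chosen with earlier results of these data known.

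Named genes are the 13 mitochondrial genes, the isoform pairs and, per comparison and complex, the 2 largest rises and falls among genes that passed, or else the smallest p. Up to 2 genes per list were named by p, and further genes are named as single cases after their values were seen. The scripts were tested on simulated data. Alternatives were edgeR 4.0.16 and DESeq2 1.42.0 on the recovered reads, TMM scaling, filters, pseudocounts, other designs and subsets of libraries.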

Additional observations from a re-analysis of the deposited data

Results flagged for a closer look

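Of 84 series of 6 libraries examined, 6 held a library far from the other 5 of its group, and chance alone gives about 1 in 20. In P14 WT replicate 5, Cox8b per kilobase stood at 2.56% of Cox8a, against 0.0395% to 0.204% in the other P14 WT libraries. In the same library Ndufa4l2 stood at 3.27% of Ndufa4, against 1.39% to 1.93%. Beside these, the summed value of 5 brown fat markers there was 378, the highest of all libraries, with Ucp1, the defining one, at 4.37 and Cidea at 298. The summed value of 8 mural and smooth muscle markers there was 25597, against at most 11180 in any other library. Other lists stood apart there too. The sums for blood (21988) and ependyma (2146) were the highest of all libraries, and that for astrocytes (72751) the lowest. The part of any of these lists in the 2 ratios was not tested.

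In P14 KO replicate 1, which has cerebellar and hindbrain markers, Cox4i2 stood at 0.961% of Cox4i1, against 0.639% to 0.698% in the other P14 KO libraries, and Cox6b2 at 1.90% of Cox6b1, against 0.440% to 0.753%. In P14 WT replicate 3, the nuclear subunits took 1.31% of all reads, against 0.935% to 1.06% in the other P14 WT libraries. In P25 WT replicate 5, Atp5c1 had a value of 5397, against 6219 to 6554 in the other P25 WT libraries.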

How the results depend on the processing

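No oxidative phosphorylation gene passed in KO against WT, or in the difference of the KO effects between the ages, under any alternative run. Over all genes DESeq2 called 1 gene at P14, 4 at P25 and 1 for the difference. At P25 region covariates called 1, the forebrain-rich libraries 1 (also 1 for the difference) and their first-batch part 50, and leaving out 1 library called 0 to 1.

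For age in WT the count of pathway genes, 44, became 8 without a batch term, 1 in the first batch, 19 in the second batch, 14 with region covariates, 4 in the forebrain-rich libraries and 1 in their first-batch part. Over all genes it was 1649 without a batch term, 46 in the first batch, 756 with region covariates, 1027 and 285 in the 2 forebrain-rich subsets, and 3407 without the libraries with pituitary, blood or choroid plexus markers. For age in KO the count of pathway genes, 9, became 19 with DESeq2, 1 without a batch term, 1 with only the groups compared, 0 in each batch alone and 15 with region covariates. Over all genes it was 3374 with DESeq2, 1311 without a filter, 444 without a batch term, 340 with only the groups compared, 36 and 0 in the batches, 1246 with region covariates and 974 in the forebrain-rich first-batch libraries. Leaving out 1 library gave 27 to 47 pathway genes and 3286 to 6586 genes in WT, and 5 to 33 and 815 to 6861 in KO. With each library left out, 26 of the 44 kept their call in WT and 5 of the 9 in KO.

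Signs turned for Uqcrb (0.0194) and mt-Atp8 (-0.0211) in the second batch of WT. In the forebrain-rich libraries of WT they turned for Cox7c (0.0121), Ndufs6 (0.0716), Ndufb9 (0.0982), Ndufv2 (0.0313), Atp5k (0.0195), Cox5b (0.0238) and Ndufb6 (0.0891). The full forebrain-rich subset sets first-batch P25 libraries against P14 libraries of both batches, without a batch term. In its first-batch part the sign turned for Ndufb9 (0.0004).

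For second against first batch at P14, DESeq2 called 1892 genes, region covariates 416 genes and 25 pathway genes, and leaving out 1 library 497 to 1444 genes. At P25 region covariates called 50 genes and 3 pathway genes. The causes of these changes were not tested, and some of the alternatives also hold fewer libraries. The library groups without pituitary, blood or choroid plexus markers and the first-batch forebrain libraries were chosen after seeing the data.

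Within an age, same-numbered WT and KO libraries share a prefix in their descriptions, whose meaning the labels do not give. Their deviations from the group means correlated at -0.276 to 0.497 at P14 and -0.599 to 0.857 at P25. After the batch term the correlations were -0.715 to 0.49 at P14 and -0.75 to 0.328 at P25. There only WT replicate 2 at P14 correlated best with the KO library of its own number, and none did at P25. Whether the numbers pair the libraries is not settled. With the replicate number as a block 0 genes passed for KO against WT at either age (466 and 67 at an unadjusted p under 0.05), as without it. Across ages the prefixes differ; with the number as a block 24 pathway genes and 2468 genes passed for age in WT, and 3 and 768 in KO.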
